A study of Mus musculus with 8 samples.

Results

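The immunity-related GTPases (IRG genes) examined here were Irgm1, Irgm2, Igtp, Iigp1, Tgtp1, Tgtp2, Ifi47 and Gm4951, found by gene symbol as 8 of the 53247 genes of one RNA-Seq table. The table covered tumor-associated macrophages (TAMs) from s.c. tumors of Lewis lung carcinoma (LLC), a mouse lung cancer cell line, with 4 samples from WT hosts and 4 from miR-21-/- hosts. WT mice were C57BL/6, and miR-21-/- mice lacked the microRNA in every cell of the body and came from a null line crossed for several generations to C57BL/6. All mice received the same tumor cells, which the sources used here do not describe as deleted for miR-21, at 8 weeks of age, and TAMs were sorted at day 14, at 10 weeks of age, by F4/80, MHCII and CD11b on CD45+ cells. The deletion was therefore present in lymphocytes and stroma as well as in the sorted cells. The labels call the samples biological replicates without giving the number of mice in each, and 1 miR-21-/- sample (replicate 1) carries 2 numbers in its title, so whether it was pooled is not known.

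Values were CPM, counts per 1000000. Judged from the step between low values, which is the worth of 1 read, libraries held 20.2 to 33.3 M reads (M, 1000000). Every value of an IRG gene in a sample stood for at least 62 reads, or at least 383 outside Tgtp1. The row of the deleted microRNA gene, Mir21a, was listed at 0.0001 CPM, the lowest value in the table, in all 8 samples and so could not check the labels. The macrophage markers Adgre1, Itgam, Csf1r, Cd68, Mertk, Ptprc and H2-Ab1 summed to 7133 to 8160 CPM in WT TAMs and 6118 to 7536 CPM in miR-21-/- TAMs. None of the 7 was called, while Adgre1, which encodes F4/80 (564 in WT against 433 CPM), and Csf1r (1311 against 939 CPM) stood lower in miR-21-/- TAMs without overlap. Epcam, an epithelial marker, was at or near 0. The test was limma over the 13850 genes whose mean reached 1 once each column total was scaled to 1000000 (the deposited columns sum to 788099 to 807758). A gene was called changed where its fold change exceeded 1.5 and its adjusted p (Benjamini-Hochberg) was no more than 0.005. By that rule 400 genes (2.89% of those tested) were higher and 586 (4.23%) were lower in miR-21-/- TAMs. The split turned to 520 higher and 350 lower when libraries were rescaled by the median of ratios, which moved the median log2 fold change of all tested genes from -0.10 to -0.0029.

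IRG proteins are GTPases that interferons, above all IFN-γ, induce in mouse cells, where they gather on the vacuoles that enclose intracellular bacteria and parasites and help to break them open. They fall into 2 groups by the residue before the last serine of the nucleotide-binding loop. Irgm1, Irgm2 and Igtp carry methionine there (GMS) and act as regulators that sit on the cell's own membranes and keep the others inactive. Members with lysine (GKS), such as Iigp1, Tgtp1, Tgtp2 and Ifi47, are the effectors that load onto the vacuole. The coding bases of this loop separate the groups and are shown 5′ to 3′ for the 6 members on chromosome 11, as read from the annotated coding sequence, with the deciding codon in capitals.
Irgm1: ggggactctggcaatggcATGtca
Irgm2: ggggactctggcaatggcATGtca
Igtp: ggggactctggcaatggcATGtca
Tgtp1: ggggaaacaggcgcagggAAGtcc
Tgtp2: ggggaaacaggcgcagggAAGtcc
Ifi47: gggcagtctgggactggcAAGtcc
The loop began at coding base 247 in Irgm1 and Irgm2, 271 in Igtp, 187 in Tgtp1 and Tgtp2 and 241 in Ifi47. The 3 GMS members were identical over these bases, although whole coding sequences shared only 74.5% of aligned bases between Irgm2 and Igtp, 70.5% between Irgm1 and Igtp and 69.4% between Irgm1 and Irgm2. The coding sequences of Iigp1 and Gm4951 also held a GKS loop.

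All 8 IRG genes were higher in miR-21-/- TAMs, with fold changes of mean CPM from 1.66 for Irgm2 to 12.6 for Tgtp1. All 8 passed the threshold, against 2.89% of all tested genes called higher, and in all 8 every miR-21-/- sample lay above every WT sample, against 9.44% of tested genes. The median log2 fold change over the 8 genes was 1.66, beside -0.10 over all tested genes. It was 1.49 for the 3 GMS members and 2.08 for the 5 GKS members, and the ranges of these groups overlapped (0.73 to 1.65 and 1.45 to 3.38). In sorted cells read in bulk, a larger share of cells that express a gene and more RNA per cell cannot be told apart. The members share library, neighbors and in part sequence, so the count of 8 is not 8 independent observations.

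**Figure D1:**
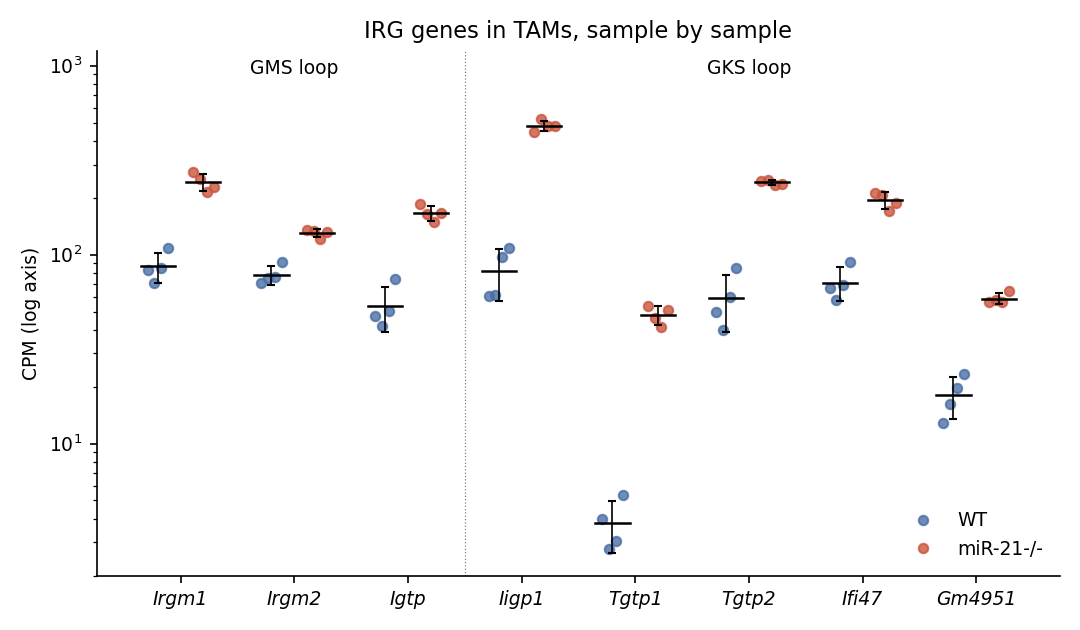
CPM of each IRG gene on a log axis in 4 WT (blue) and 4 miR-21-/- (red) TAM samples, with 1 point per sample, a line at the mean and bars of 1 SD; GMS members stand left of the dotted line. The genotypes do not overlap for any of the 8 genes, and Tgtp1 is the member with the lowest WT level, 3.79 CPM.

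Among the GMS regulators, Irgm1 (chr11:48861968-48871683, GRCm38, minus strand), which is needed for resistance to many intracellular pathogens, was read at 82.9, 70.6, 84.9 and 108 CPM in WT TAMs and at 274, 252, 216 and 229 CPM in miR-21-/- TAMs. The lowest miR-21-/- value was 2.00 times the highest WT value. Means were 86.6 ± 15.6 and 243 ± 25.5 CPM (SD, n = 4), and limma on log2(CPM + 1) gave a log2 fold change of 1.49 (SE 0.12, Benjamini-Hochberg adjusted p = 2.94e-05). Igtp (chr11:58199556-58207591, plus strand), also called Irgm3 and found on the endoplasmic reticulum and lipid droplets, was at 47.3, 41.8, 50.3 and 74.0 CPM in WT TAMs and at 186, 165, 148 and 166 CPM in miR-21-/- TAMs. Its groups were likewise separate, by a factor of 2.00 between the nearest samples. The mean went from 53.4 ± 14.2 (WT) to 166 ± 15.4 CPM (miR-21-/-; SD, n = 4), for a log2 fold change of 1.65 (SE 0.15, limma Benjamini-Hochberg adjusted p = 5.62e-05).

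Irgm2 (chr11:58199618-58222782, plus strand), a Golgi-associated regulator, moved least of the 8. It was at 70.7, 74.9, 76.2 and 91.3 CPM in WT TAMs and at 135, 133, 120 and 132 CPM in miR-21-/- TAMs, so that the nearest samples were 1.32-fold apart. Means were 78.3 ± 9.01 and 130 ± 6.45 CPM (SD, n = 4), with a log2 fold change of 0.73 (SE 0.078, limma Benjamini-Hochberg adjusted p = 0.000156). It was the one member whose fold change stayed under 2. The annotated genes Igtp and Irgm2 overlap, sharing 162 exon bases on the same strand, 8.01% of the exon bases of Igtp and 4.39% of those of Irgm2, so some of their reads cannot be assigned to either with certainty.

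Among the GKS effectors, Iigp1, also called Irga6 and the most studied member of the family, reached the highest CPM. WT TAMs held 60.1, 61.4, 97.0 and 109 CPM, and miR-21-/- TAMs held 446, 519, 477 and 481 CPM. The WT values spread over a 1.81-fold range, while the miR-21-/- values stayed within a 1.16-fold range and all exceeded the highest WT value at least 4.11-fold. The mean went from 81.8 ± 24.8 (WT) to 481 ± 29.96 CPM (miR-21-/-; SD, n = 4), for a log2 fold change of 2.59 (SE 0.18, limma Benjamini-Hochberg adjusted p = 1.30e-05) that ranked 13 among all tested genes. Gm4951, a gene of the Iigp1 type that shared 88% of aligned coding bases with it, was read at 12.8, 16.1, 19.8 and 23.5 CPM in WT TAMs and at 56.5, 57.5, 56.1 and 64.2 CPM in miR-21-/- TAMs. Here too the genotypes were separate. Its mean went from 18.05 ± 4.60 (WT) to 58.5 ± 3.79 CPM (miR-21-/-; SD, n = 4), for a log2 fold change of 1.67 (SE 0.15, limma Benjamini-Hochberg adjusted p = 5.05e-05).

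Ifi47 (chr11:49076587-49096974, plus strand), also called Irgd, was read at 66.8, 57.3, 69.4 and 91.3 CPM in WT TAMs and at 213, 207, 169 and 188 CPM in miR-21-/- TAMs, again without overlap. Its mean went from 71.2 ± 14.4 (WT) to 195 ± 19.8 CPM (miR-21-/-; SD, n = 4), for a log2 fold change of 1.45 (SE 0.13, limma Benjamini-Hochberg adjusted p = 4.91e-05), which was the lowest of the GKS members. It shares 111 exon bases, 4.49% of its own, with Olfr56 on the same strand and 106 with Gm12188 on the opposite strand. Whether the counting used strand is not given in the sources used here.

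Tgtp1 and Tgtp2 encode the T-cell-specific GTPases, an almost identical pair also called Irgb6 that is among the first to load onto parasite vacuoles. Tgtp1 (chr11:48985327-48994172, minus strand) was read at 3.98, 2.77, 3.06 and 5.35 CPM in WT TAMs and at 53.6, 46.2, 41.2 and 50.8 CPM in miR-21-/- TAMs. All miR-21-/- samples thus exceeded the highest WT sample at least 7.71-fold. The mean went from 3.79 ± 1.16 (WT) to 47.9 ± 5.42 CPM (miR-21-/-; SD, n = 4), for a log2 fold change of 3.38 (SE 0.16, limma Benjamini-Hochberg adjusted p = 1.53e-06) that ranked 2 among all tested genes. Tgtp2 (chr11:49057194-49064206, minus strand) was read at 49.8, 39.8, 59.6 and 85.3 CPM in WT TAMs and at 247, 249, 235 and 236 CPM in miR-21-/- TAMs. Its WT values were the most spread of any member relative to their mean (33.3%) and its miR-21-/- values the least (2.98%), and the genotypes did not overlap. Its mean went from 58.6 ± 19.5 (WT) to 242 ± 7.21 CPM (miR-21-/-; SD, n = 4), for a log2 fold change of 2.08 (SE 0.18, limma Benjamini-Hochberg adjusted p = 4.65e-05).

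The pair is hard to tell apart by reads. Their coding sequences differed at 4 of 1248 bases, and 79.4% of the 50-base words of Tgtp1 exons also occurred in Tgtp2, against at most 11.8% of words shared with any other gene for the 6 members outside the pair. How the authors' counting treated reads that match both is not given in the sources used here. Summed, the pair stood at 53.8, 42.6, 62.7 and 90.6 CPM in WT TAMs and at 300.4, 295, 276 and 287 CPM in miR-21-/- TAMs. If each shared read was counted once, the sum does not depend on how reads were divided between the copies. Its groups were separate. Its log2 fold change was 2.25 (SE 0.18, limma Benjamini-Hochberg adjusted p = 2.73e-05), close to that of Tgtp2 alone.

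As deposited, the copies did not move in proportion. Tgtp1 made up 7.41, 6.500, 4.88 and 5.91% of the summed CPM in WT TAMs and 17.8, 15.6, 14.9 and 17.7% in miR-21-/- TAMs. The means were 6.17 ± 1.06% and 16.5 ± 1.46% (SD, n = 4), and the difference of 10.3 percentage points had a two-sided exact permutation p of 0.0286, the smallest that 4 against 4 samples allow. Tgtp1 also shares 223 exon bases, 6.96% of its own, with Gm12185 on the same strand, a gene that rose from 3.75 ± 1.41 to 24.8 ± 2.99 CPM (SD, n = 4). The part of shared reads in this change of ratio was not tested.

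**Figure D2:**
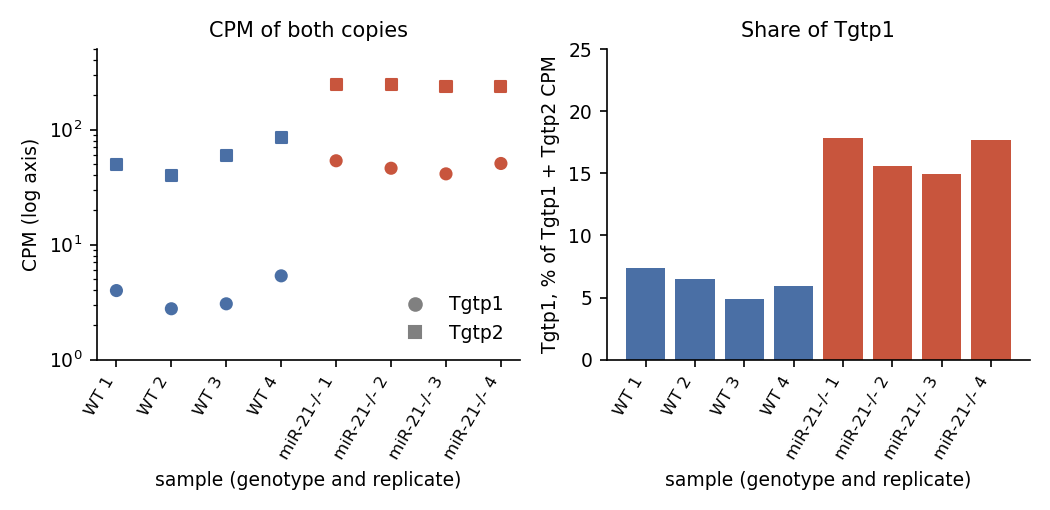
Left, CPM of Tgtp1 (circles) and Tgtp2 (squares) on a log axis in each WT (blue) and miR-21-/- (red) sample; right, bars from 0 give Tgtp1 as a percent of the summed CPM of both. The share lies between 4.88 and 7.41% in the 4 WT samples and between 14.9 and 17.8% in the 4 miR-21-/- samples.

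Since the members moved together, their promoters were read from RefSeq (GRCm38.p6) as 250 bases before to 50 bases after the start, a window that was at hand for 6 of the 8 genes. IFN-γ acts on such genes through GAS elements, and interferons and IRF factors act through ISRE elements. GAS was searched on both strands as TTCNNNGAA, and ISRE as GAAA followed after any 2 bases by GAAA; the 2 motifs did not overlap each other in the windows shown. A GAS match occurred in 4 of the 6 and an ISRE match in 5. Among all 32851 RefSeq promoters of that length, 8.3% held a GAS match and 3.44% an ISRE match. The windows around the matches are shown 5′ to 3′ along the gene, with GAS and then ISRE letters in capitals, because 4 of them repeat 1 arrangement.
Irgm2 (chr11:58214898-58214926, plus strand): ccatTTCCAGGAActGAAACTGAAAgctg
Igtp (chr11:58199507-58199535, plus strand): ccatTTCTAGGAActGAAACTGAAAgctg
Tgtp1 (chr11:48992310-48992338, minus strand): ccatTTCCAGGAAtcGAAACTGAAAccta
Tgtp2 (chr11:49064269-49064297, minus strand): ccatTTCCAGGAAtcGAAACCGAAAccta
Irgm1 (chr11:48871431-48871448, minus strand): aataGAAACCGAAActga
In Irgm2, Igtp, Tgtp1 and Tgtp2 the GAS match came first and stood 2 bases from the ISRE match. Tgtp1 and Tgtp2 are copies of each other and the windows of Irgm2 and Igtp are nearly alike, so these 4 are not independent occurrences. Both motifs within 10 bases of each other occurred in 0.131% of all promoters and in 0.199% of the promoters of tested genes. The GAS match began 75 bases before the start in Irgm2, 45 in Igtp, 88 in Tgtp1 and 81 in Tgtp2. Irgm1 held 2 overlapping ISRE matches, beginning 30 and 24 bases before the start with the second in capitals, and no GAS match. The Ifi47 window held neither set of letters. These are letter matches and no binding was measured here.

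Tgtp1 and Tgtp2, the pair that nearly shares a coding sequence, are shown over 120 bases before the RefSeq start, with the same letters in capitals.
Tgtp1 (chr11:48992247-48992366, minus strand): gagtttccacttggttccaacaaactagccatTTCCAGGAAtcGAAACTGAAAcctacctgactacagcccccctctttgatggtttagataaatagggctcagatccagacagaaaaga
Tgtp2 (chr11:49064213-49064332, minus strand): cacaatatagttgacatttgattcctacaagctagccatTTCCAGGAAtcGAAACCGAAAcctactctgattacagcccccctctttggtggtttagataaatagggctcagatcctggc
Aligned over the 250 bases before the start, the copies shared 171 bases, with 51 mismatches and 56 gap positions. The shared bases were 77% of the positions aligned without a gap.

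Because the hosts lacked miR-21, the 3′ UTRs of the IRG genes were searched for matches to its seed. The mature mouse miR-21a-5p (chr11:86584120-86584141, minus strand, GRCm38.p6) is shown with bases 2 to 8 in capitals, above the stretch of the Tgtp1 and Tgtp2 3′ UTRs that holds their longest match, itself in capitals.
miR-21a-5p: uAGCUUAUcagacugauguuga
Tgtp1 and Tgtp2: attgtttTAAGCTAgtcactc
The match, TAAGCTA, pairs with bases 2 to 7 and ends in A, and began at base 618 of the longest annotated 3′ UTR in both copies. No member held the 8-base site ATAAGCTA. Iigp1 and Ifi47 each held only the 6-base core TAAGCT, and Irgm1, Irgm2, Igtp and Gm4951 held none. A 7- or 8-base site therefore occurred in 2 of 8 members, beside 12.4% of 11449 tested genes with an annotated 3′ UTR, and a site of 6 bases or more in 4 of 8, beside 26.6%. Both counts include the same site in the near-identical copies Tgtp1 and Tgtp2, which are not independent, so they do not show an excess of sites. All 8 members rose, with a match or without one, and whether miR-21 acts on any of these 3′ UTRs was not tested. The Mir21a gene is on the same chromosome as 6 members, 28.4 to 37.7 Mb from them.

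Within WT TAMs the members shared their highest sample. WT replicate 4 had the highest WT value for all 8 genes, while it was highest for 25.1% of all tested genes. WT replicate 2 was the lowest WT sample for 5 members (17.5% of all tested genes) and replicate 1 for the other 3 (30.1%). Among miR-21-/- TAMs, replicate 3 was lowest for 7 members (24.0% of all tested genes) and replicate 1 for Iigp1. The highest miR-21-/- sample was not shared: it was replicate 1 for 5 members, replicate 2 for 2 and replicate 4 for 1. WT TAMs were the more variable group for every member, with coefficients of variation of 11.5 to 33.3% in WT and 2.98 to 11.3% in miR-21-/- TAMs. Leaving out WT replicate 4, or any other single sample, left all 8 genes past the threshold.

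**Figure D3:**
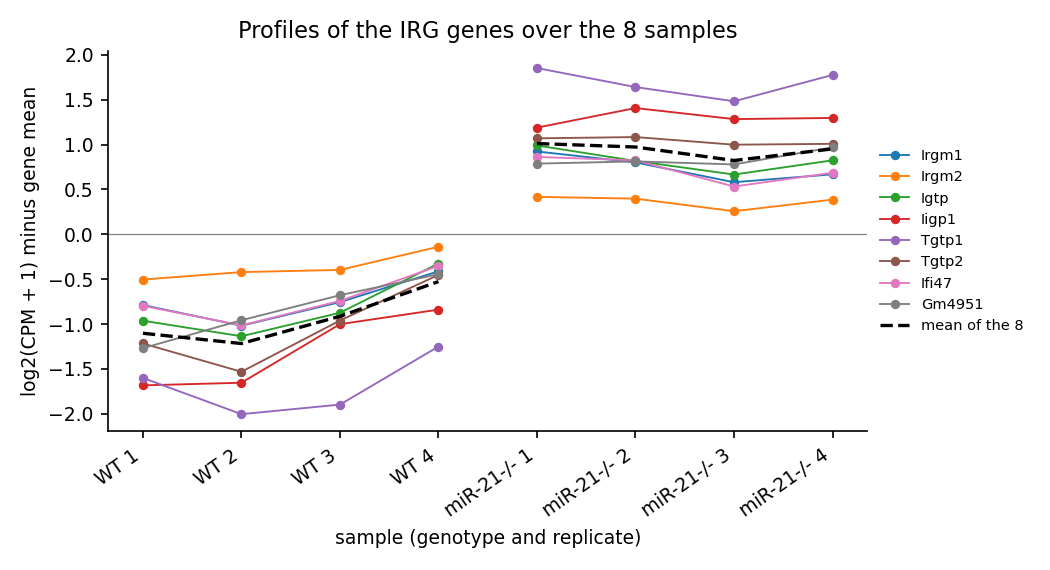
log2(CPM + 1) of each IRG gene minus its mean over the 8 samples, by sample; thin lines join the values of 1 gene within a genotype only to follow that gene, and the dashed line is the mean of the 8 genes. All 8 genes peak at WT replicate 4 within WT, and Tgtp1 and Irgm2 mark the widest and the narrowest distance between genotypes.

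Per kilobase of annotated exon, levels of the members could be set beside each other. In WT TAMs Ifi47 stood first at 28.8 ± 5.81 CPM per kilobase (SD, n = 4), followed by Igtp at 26.4 ± 7.04, Irgm2 at 21.2 ± 2.44, Tgtp2 at 19.96 ± 6.64, Irgm1 at 14.9 ± 2.68 and Iigp1 at 14.0 ± 4.26. The ranges over samples of each neighboring pair in this order overlapped. Gm4951 at 6.82 ± 1.74 and Tgtp1 at 1.18 ± 0.363 CPM per kilobase came last, each below the range of the gene before it. In miR-21-/- TAMs Iigp1 (82.6 ± 5.14), Tgtp2 (82.3 ± 2.45), Igtp (82.1 ± 7.61) and Ifi47 (78.7 ± 8.02 CPM per kilobase) were level within their ranges. Irgm1 at 41.8 ± 4.39, Irgm2 at 35.2 ± 1.75, Gm4951 at 22.1 ± 1.43 and Tgtp1 at 15.0 ± 1.69 CPM per kilobase followed without overlap between neighbors. Iigp1 thus went from place 6 to place 1. With the longest annotated transcript as the length, Iigp1 stood at 26.2 CPM per kilobase in WT and 154 in miR-21-/- TAMs, places 3 and 1 in order. The first 4 in miR-21-/- TAMs were then no longer level, since Iigp1 and Ifi47 (109.8 CPM per kilobase) each lay above the range of the next and only Tgtp2 (86.1) and Igtp (82.1) overlapped, while Gm4951 and Tgtp1 stayed last in both genotypes.

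Of 9 further genes with an IRG domain 8 were tested, and 4 were called higher and none lower. Over all tested genes 2.89% were called higher and 4.23% lower. Gm12250, the locus of the effector Irgb10, went from 27.2 ± 5.56 (WT) to 61.6 ± 6.37 CPM (miR-21-/-; SD, n = 4), for a log2 fold change of 1.17. Gm12185 rose with a log2 fold change of 2.48, the highest of this list on the log2(CPM + 1) scale, although the ratio of means was larger for Gm4841 (8.40) than for Gm12185 (6.61). Gm12185 shares 223 exon bases with Tgtp1 on the same strand, and the part of shared reads in its rise was not tested. F830016B08Rik rose from 3.91 ± 0.323 to 15.4 ± 0.919 CPM (log2 fold change 1.74), and Gm4841 from 0.813 ± 0.403 to 6.84 ± 1.00 CPM (log2 fold change 2.13). The remaining tested genes did not pass the threshold, from Gm5431 (log2 fold change 0.49, SE 0.094) down to Irgq (log2 fold change -0.23, SE 0.10). Gm5431 was called higher when libraries were rescaled by the median of ratios (log2 fold change 0.60). Irgc1, a testis gene, was below the filter at 0.414 ± 0.215 and 0.752 ± 0.0847 CPM (SD, n = 4).

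The guanylate-binding proteins are larger IFN-induced GTPases that act on the same vacuoles. Of 10 tested, 9 were called higher, beside 2.89% of all tested genes. The median log2 fold change was 1.89, and the values ran from 0.66 for Gbp9 to 3.03 for Gbp2b. Gbp2b had the widest error of them (SE 0.44). Gbp8 rose by 0.71 on the log2 scale with a limma Benjamini-Hochberg adjusted p of 0.00580, just outside the threshold, and Gbp11 was below the filter. All 10 tested were called higher after rescaling by the median of ratios, with array weights, with the replicate block or without WT replicate 4. With no filter on low values 8 were called.

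Of the 13 IFN-γ signaling genes tested, 3 were called higher and 1 lower, and 5 higher and 1 lower under either other scaling. In the main fit 2.89% of all tested genes were called higher and 4.23% lower. Those higher included Irf1, a transcription factor that IFN-γ induces (121 ± 17.9 to 376 ± 51.7 CPM, log2 fold change 1.63), and Socs1, a feedback inhibitor of the pathway (5.18 ± 1.09 to 26.2 ± 5.36 CPM, 2.14). Ifngr1, the ligand-binding receptor chain, was the gene called lower, from 256 ± 26.6 to 154 ± 11.3 CPM (SD, n = 4), a log2 fold change of -0.72. The ligand Ifng, which lymphocytes make, was at 0.866, 0.208, 0.484 and 0.298 CPM in WT TAMs and at 2.45, 2.00, 0.995 and 3.58 CPM in miR-21-/- TAMs. Its genotypes did not overlap, and its values stood for 6 to 26 reads in WT and 26 to 108 reads in miR-21-/- TAMs. Its log2 fold change of 1.11 (SE 0.24) had a limma Benjamini-Hochberg adjusted p of 0.00554 and was not called, a call that turned with a pseudocount of 0.1, with quantile normalization and without miR-21-/- replicate 3 (limma adjusted p of 0.00485, 0.00456 and 0.00180).

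Loading of IRG effectors onto vacuoles depends on the ATG8 conjugation machinery and is followed by ubiquitin ligases, and none of the 13 genes tested for these steps was called in either direction by limma. At the shares of all tested genes, 2.89% called higher and 4.23% lower, a list of 13 would hold few calls or none. At an unadjusted p under 0.05 there were 8 of the 13, beside 46.4% of all tested genes, and 6 had an adjusted p of 0.05 or less, beside 36.0%, with 3 of the 6 higher. The log2 fold changes ran from -0.31 for Map1lc3b, an ATG8 protein, to 0.45 for Trim21, a ubiquitin ligase.

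**Figure D4:**
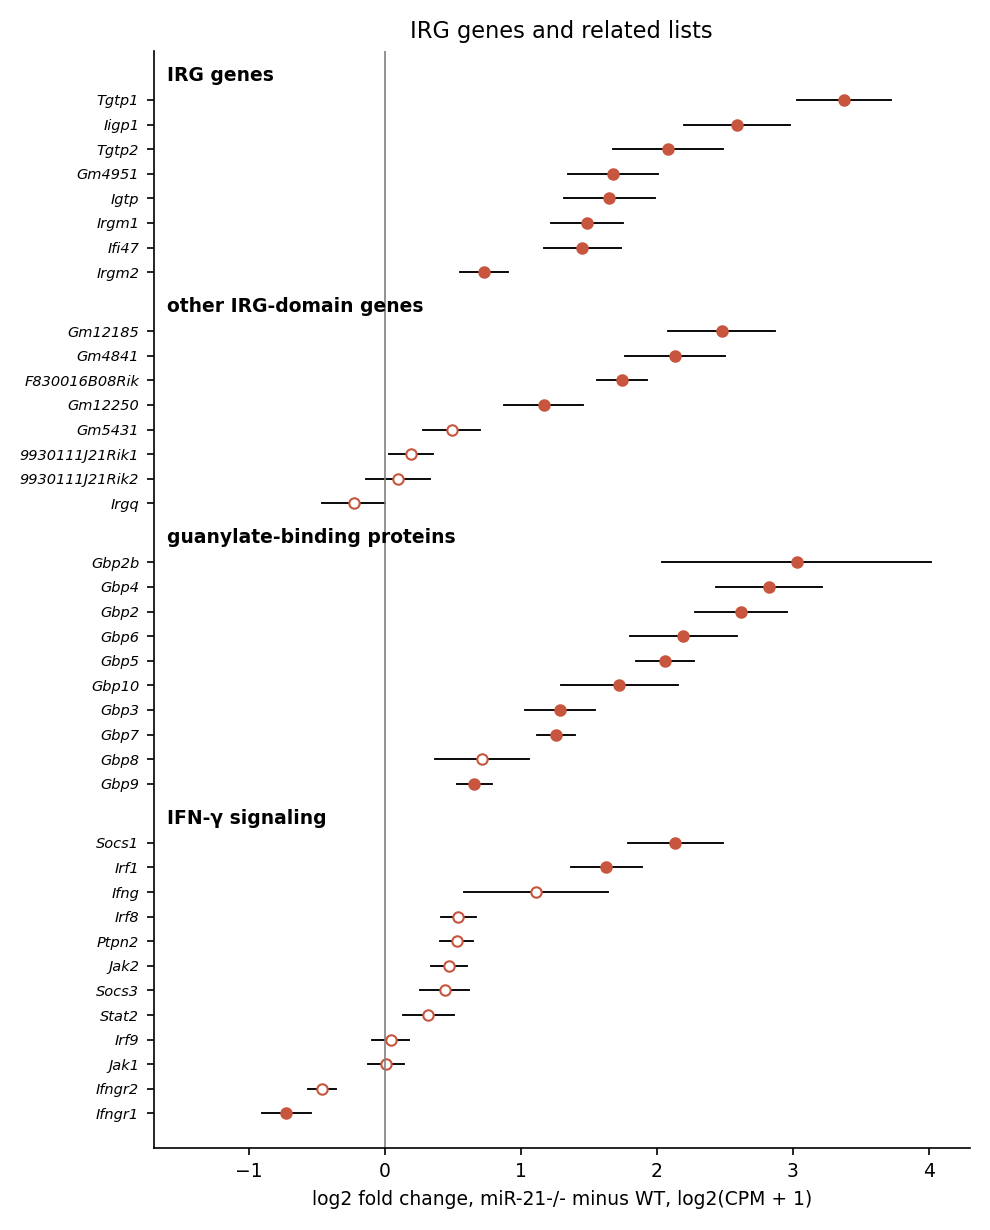
log2 fold change of log2(CPM + 1), miR-21-/- minus WT, with 95% limma confidence intervals for the 8 IRG genes, 8 other IRG-domain genes, 10 guanylate-binding proteins and 12 of the IFN-γ signaling genes; filled points passed the threshold and open points did not. The IRG genes run from 0.73 for Irgm2 to 3.38 for Tgtp1, and Ifngr1 is the only filled point left of 0.

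The IRG genes lie in 3 clusters. Irgm1, Tgtp1, Tgtp2 and Ifi47 form the first and Igtp and Irgm2 the second, both on chromosome 11, while Gm4951 (chr18:60212080-60247820) and Iigp1 (chr18:60376029-60392627) lie on the plus strand of chromosome 18. Of the 55 other genes within 200 kb of a member, 31 were tested, and 8 of these were called higher and none lower. Over all tested genes 2.89% were called higher and 4.23% lower, a share at which 31 genes would hold few lower calls or none. Of the 8, 4 are the IRG-domain genes Gm12250, Gm12185, F830016B08Rik and Gm4841 named above. The others were Psme2b, a copy of a proteasome activator gene (76.4 ± 4.44 to 124 ± 4.58 CPM, log2 fold change 0.70), Olfr56, which overlaps Ifi47 (5.61 ± 1.31 to 21.1 ± 2.86 CPM, 1.75), Gm5970 inside the span of Gm4951 (1.46 ± 0.346 to 5.74 ± 0.594 CPM, 1.46) and BC023105 (0.189 ± 0.198 to 2.10 ± 0.722 CPM, 1.37). With a pseudocount of 10 neither Gm5970 (0.46) nor BC023105 (0.25) was called. The other 23 tested neighbors lay between log2 fold changes of -0.61 and 0.49 and were not called. The lowest of them was Trim7 (-0.61), which stands just beside the first cluster and was called lower when limma was run without the trend, with array weights or without WT replicate 1. Calls thus differed among genes of these regions, and the part of the region in the levels of the IRG genes was not tested.

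**Figure D5:**
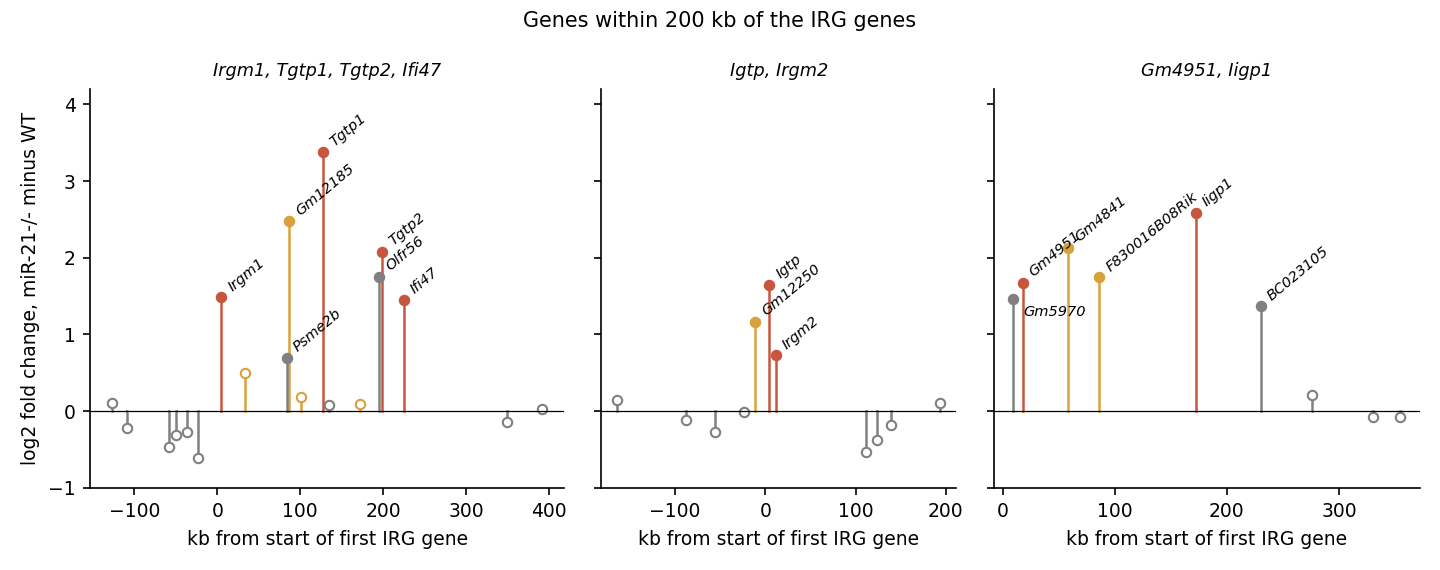
log2 fold change, miR-21-/- minus WT, of IRG genes (red), other IRG-domain genes (gold) and other tested genes (grey) within 200 kb, by distance of the gene's midpoint from the start of the first IRG gene of each cluster; filled points passed the threshold. The 8 called neighbors lie at 0.70 or above, and the 23 uncalled ones between -0.61 and 0.49.

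Outside the family, the 5 genes whose centered log2(CPM + 1) profile over the 8 samples lay nearest to the mean profile of the IRG genes were Slco3a1, an organic anion transporter (root mean square difference 0.077), Slamf7, a receptor of the SLAM family (0.096), Itgb7, an integrin chain (0.11), Gbp5 (0.13) and Olfr56 (0.14). Slco3a1 rose from 19.3 ± 4.17 to 67.9 ± 6.56 CPM (SD, n = 4). Olfr56 shares 111 exon bases with the member Ifi47 on the same strand, and the part of shared reads in its profile was not tested.

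Markers of other cell types that the sort could carry were compared beside the IRG genes. Neutrophil markers (S100a8, S100a9, Csf3r, Ly6g) summed to 695 to 1061 CPM in WT and 520 to 683 CPM in miR-21-/- TAMs, and fibroblast markers (Col1a1, Col3a1, Dcn) to 36.5 to 97.1 and 6.05 to 34.7 CPM, so that both sums were lower in miR-21-/- TAMs without overlap. Of the fibroblast markers, Col1a1 (log2 fold change -2.29) and Col3a1 (-2.51) were called lower. None of the 4 neutrophil markers was called, and Ly6g went the other way from 1.91 to 2.59 CPM. Epithelial markers (Epcam, Krt8, Krt18) summed to 15.6 to 22.0 and 11.5 to 15.8 CPM. T and NK cell markers overlapped between genotypes, at 28.1 to 43.2 and 19.9 to 61.1 CPM over 8 genes. Of the 7 tested, Cd4 was called lower, from 16.6 ± 10.0 to 2.19 ± 1.15 CPM (SD, n = 4). The other 6 had log2 fold changes of 0.0019 to 1.28 and were not called. Among these Cd8a did not overlap between genotypes (log2 fold change 1.28), and Prf1 had 1.16, Nkg7 0.91 and Gzmb 0.69. B cell markers (1.14 to 3.18 and 0.414 to 4.32 CPM), dendritic cell markers (9.12 to 15.1 and 11.3 to 36.2 CPM) and endothelial markers (151 to 299 and 198 to 286 CPM) overlapped as well. The dendritic cell markers did not move together: Clec9a did not overlap between genotypes, at 2.54 ± 0.195 and 8.18 ± 4.29 CPM (SD, n = 4), with a log2 fold change of 1.26, Xcr1 had 1.06 and Cd209a -1.28, and none of the 5 was called. The part of these cells in the levels of the IRG genes was not tested.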

How the data were processed

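Total RNA of sorted TAMs was made into mRNA libraries. Per the submitters' processing notes, reads were aligned with STAR to mm10 and processed in Partek 7.0. The deposited values are CPM to which the authors added 0.0001; column totals ran from 788099 to 807758, and coordinates matched GENCODE vM21 (GRCm38) for 97% of shared symbols. Low values were whole multiples of 1 read, within 0.1 read, for 79.6 to 80.6% of values up to 20 reads, so whole reads were not recovered and no count test was run.

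Genes whose mean reached 1 after scaling each column total to 1000000 were fitted as log2(CPM + 1) with limma 3.58.1 (trend) in R 4.3.3; fold changes on this scale understate those of low genes. Threshold and comparison followed the study's methods. Tgtp1's share was tested by exact permutation. Sums, levels per exon length, 50-base words, loops and motifs were computed in Python. Scripts were tested on simulated data. Intervals cover the spread between samples only. All 8 members were named, with the highest, the lowest and up to 6 called genes of each list. Of the IFN-γ signaling list, 1 gene is counted but not reported here by name. Members and lists were chosen with earlier results of these data known.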

Additional observations from a re-analysis of the deposited data

Results flagged for a closer look

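Among 22 checks of samples within a genotype (the 8 IRG genes, the sum and the ratio of Tgtp1 and Tgtp2, and the mean profile), 1 value stood apart from the rest of its group. Gm4951 was at 64.2 CPM in miR-21-/- replicate 4, while the other miR-21-/- samples lay between 56.1 and 57.5 CPM, a gap of 0.832 of the group's range, above the 95% critical value of Dixon's test for 4 samples. Chance marks about 1 group in 20 in this way. The sample lies on the far side from WT, and Gm4951 passed the threshold without it.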

How the results depend on the processing

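The number of IRG genes past the threshold was 8 under 18 of 19 alternatives (pseudocounts of 0.1 and 10, no filter or one at 5, 2 other scalings, no trend, array weights, the replicate block, each sample left out, a limit of 0.05 on the adjusted p) and 7 with a fold change over 2, which left out Irgm2. Separate log2 fold changes kept their direction and stayed past the threshold in all 138 refits, with ranges from 0.67 to 0.84 for Irgm2 and from 2.07 to 3.67 for Tgtp1 and a largest adjusted p of 0.00166. All tested genes past the threshold numbered 986, but 452 with a pseudocount of 10, 515 with no filter, 377 with a fold change over 2 and 4982 at an adjusted p of 0.05 with no fold limit. That last limit also gave 11 IFN-γ signaling genes in place of 4, 6 vacuole-targeting genes in place of 0, and 17 neighbors in place of 8; 5 neighbors were called with the filter at 5, which tests fewer genes. Blocks used the submitters' biological replicate numbers, which the sample titles do not repeat for miR-21-/-. Deviations of same-numbered samples correlated at 0.083, -0.11, -0.14 and 0.22, and of the 4 pairs only number 4 matched its own number best, so the numbers were not taken to pair samples. The replicate block gave 922 genes and changed no call of an IRG gene. For the share of Tgtp1, the replicate block kept the difference of 10.3 points with an exact permutation p of 0.125, the smallest it allows, and leaving out single samples gave 9.91 to 10.9 points, where p cannot fall below 0.0571. Low depth limits Ifng and BC023105.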
